A study of Mus musculus with 18 samples.

Results

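Matricellular proteins are secreted proteins that sit in the extracellular matrix and change how cells respond to it, without a main role in its mechanical structure. Here 10 such genes, of the 34150 genes in each deposited file, were chosen by name: the CCN family members Ccn1, Ccn2, Ccn3 and Ccn5 (older symbols Cyr61, Ctgf, Nov and Wisp2), the SPARC family members Sparc, Sparcl1, Smoc1 and Smoc2, osteopontin (Spp1) and tenascin-C (Tnc). The study sequenced ribosomal-RNA-depleted total RNA from mouse hearts in 3 groups of 6 libraries: control, MI and HXP. MI stands for acute myocardial infarction in the series title, which places HXP as a treatment given in that mouse model. The labels do not spell out HXP or give its dose, the time after infarction, the strain, the sex or the age of the animals, and they do not say whether each library came from 1 animal or which region of the heart was taken. P-values therefore measure the spread between these libraries.

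CCN proteins are modular proteins that bind integrins and heparan sulphate proteoglycans, and several are induced by transforming growth factor beta, by YAP with TEAD factors, and by serum response factor. SPARC family proteins bind collagen, calcium or growth factors. Osteopontin and tenascin-C are nearly silent in the resting adult myocardium and are known as markers of cardiac injury and remodelling, where macrophages and fibroblasts are their usual sources.

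Promoter windows from RefSeq, from 250 bases before to 50 bases after a gene's start (build GRCm38.p6), were found for 4 of the 10 genes: Spp1, Tnc, Sparc and Ccn1. The 250 bases before the start are shown for Ccn1, the only CCN gene with a window, which held a TEAD motif. They are also shown for Tnc and Spp1, the genes with the lowest levels in control hearts. Tnc and Spp1 have 2 RefSeq starts each, and the upstream one is shown. Capitals mark TATAAA and, on either strand, the TEAD motif GGAATG (read as CATTCC on the other strand) and the SMAD motif CAGACA (read as TGTCTG).
Ccn1 (chr3:145649986-145650235, minus strand): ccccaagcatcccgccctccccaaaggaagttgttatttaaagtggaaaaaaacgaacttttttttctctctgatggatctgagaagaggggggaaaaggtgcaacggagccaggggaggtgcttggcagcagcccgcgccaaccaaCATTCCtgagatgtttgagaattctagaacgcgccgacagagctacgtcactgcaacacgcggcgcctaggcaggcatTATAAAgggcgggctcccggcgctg
Tnc (chr4:64047016-64047265, minus strand): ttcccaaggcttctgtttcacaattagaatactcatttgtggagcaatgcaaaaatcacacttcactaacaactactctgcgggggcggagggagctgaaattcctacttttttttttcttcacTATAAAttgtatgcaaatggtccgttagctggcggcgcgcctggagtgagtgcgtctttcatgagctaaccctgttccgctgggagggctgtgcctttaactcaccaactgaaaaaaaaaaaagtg
Spp1 (chr5:104434861-104435110, plus strand): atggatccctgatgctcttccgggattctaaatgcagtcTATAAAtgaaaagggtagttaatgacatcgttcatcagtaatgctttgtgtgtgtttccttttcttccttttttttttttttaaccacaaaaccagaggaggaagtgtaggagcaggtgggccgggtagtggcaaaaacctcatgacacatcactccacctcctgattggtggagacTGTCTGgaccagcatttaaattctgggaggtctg

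Positions are counted from the start, with a minus sign before it. In the Ccn1 window the TEAD letters began at -103 and the TATAAA letters at -25, close to where a TATA box usually lies. The SMAD match of Spp1 was at -34, and Sparc held SMAD matches at -36 and at 14. Tnc had a SMAD match at 8, outside the stretch shown. The TATAAA letters of Tnc and Spp1 lay farther out, at -126 and -211. Among all 32544 RefSeq windows of the same length, 14.6% held GGAATG, 20.9% held CAGACA and 8.28% held TATAAA on the gene's strand. The AP-1 motif TGANTCA (7.79% of windows) and the CArG box (1.64%) were searched on both strands and had no match in the windows of the 4 genes. These matches describe the letters and are not measurements of binding.

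Values are FPKM, fragment numbers scaled to gene length and to library size, so levels of different genes can be set side by side. All 10 genes were above 0 in all 18 libraries, and all 10 cardiomyocyte markers examined (Myh6, Tnnt2, Ttn and others) were above 0 in every library. Step totals were even: the size of the smallest step in the FPKM values corresponds to a total of 75763889 to 81083385 steps per library. The number of steps that 1 fragment is worth is not known, so depth in fragments was not measured. Mitochondrial transcripts took 16.6 to 36.8% of the signal (FPKM times exon length). Some libraries stood apart. The summed FPKM of 7 lung epithelial markers was 1176 in MI 5 against 0.550 to 1.95 in the other MI libraries, and the mean log2 level of 9 skeletal muscle markers was 3.81 in MI 4 against 1.23 to 1.63. The summed FPKM of 12 fibroblast markers ran from 438 to 574 in controls, from 848 (MI 6) to 3382 (MI 5) in MI hearts and from 257 (HXP 6) to 3935 (HXP 3) in HXP hearts, and 15 macrophage markers ran from 178 to 243, from 265 (MI 6) to 1204 (MI 5) and from 110 (HXP 6) to 1106 (HXP 2). None of the 12 fibroblast or 15 macrophage markers was at 0 in any library. MI 1 and MI 2 were the closest libraries within a group, with a median absolute log2 difference of 0.0754 against 0.110 to 0.691 for other pairs.

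In control hearts the levels fell into clear tiers. Sparcl1 (hevin, a SPARC relative) led with 108 ± 11.7 FPKM (SD, n = 6), followed by Sparc (osteonectin) with 79.4 ± 19.3, and their ranges overlapped. Smoc2, Ccn1 and Ccn2 formed the next tier at 21.3 ± 2.94, 19.8 ± 4.56 and 17.9 ± 4.82 FPKM, with overlapping ranges. Ccn5 was at 4.67 ± 1.62, Smoc1 at 1.60 ± 0.445 and Ccn3 at 0.998 ± 0.275 FPKM, each range touching the next. Spp1 at 0.432 ± 0.117 and Tnc at 0.133 ± 0.0611 FPKM were lowest, and the ranges of Ccn3, Spp1 and Tnc did not overlap. In MI hearts the order of the means was Sparc, Ccn2, Sparcl1, Ccn5, Ccn1, Smoc2, Spp1, Tnc, Smoc1 and Ccn3. The MI ranges of neighbours in this order overlapped. By median Smoc1 (5.23 FPKM) lay above Tnc (4.39 FPKM), and Ccn2 (158 FPKM) was close to Sparcl1 (157 FPKM).

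**Figure D1:**
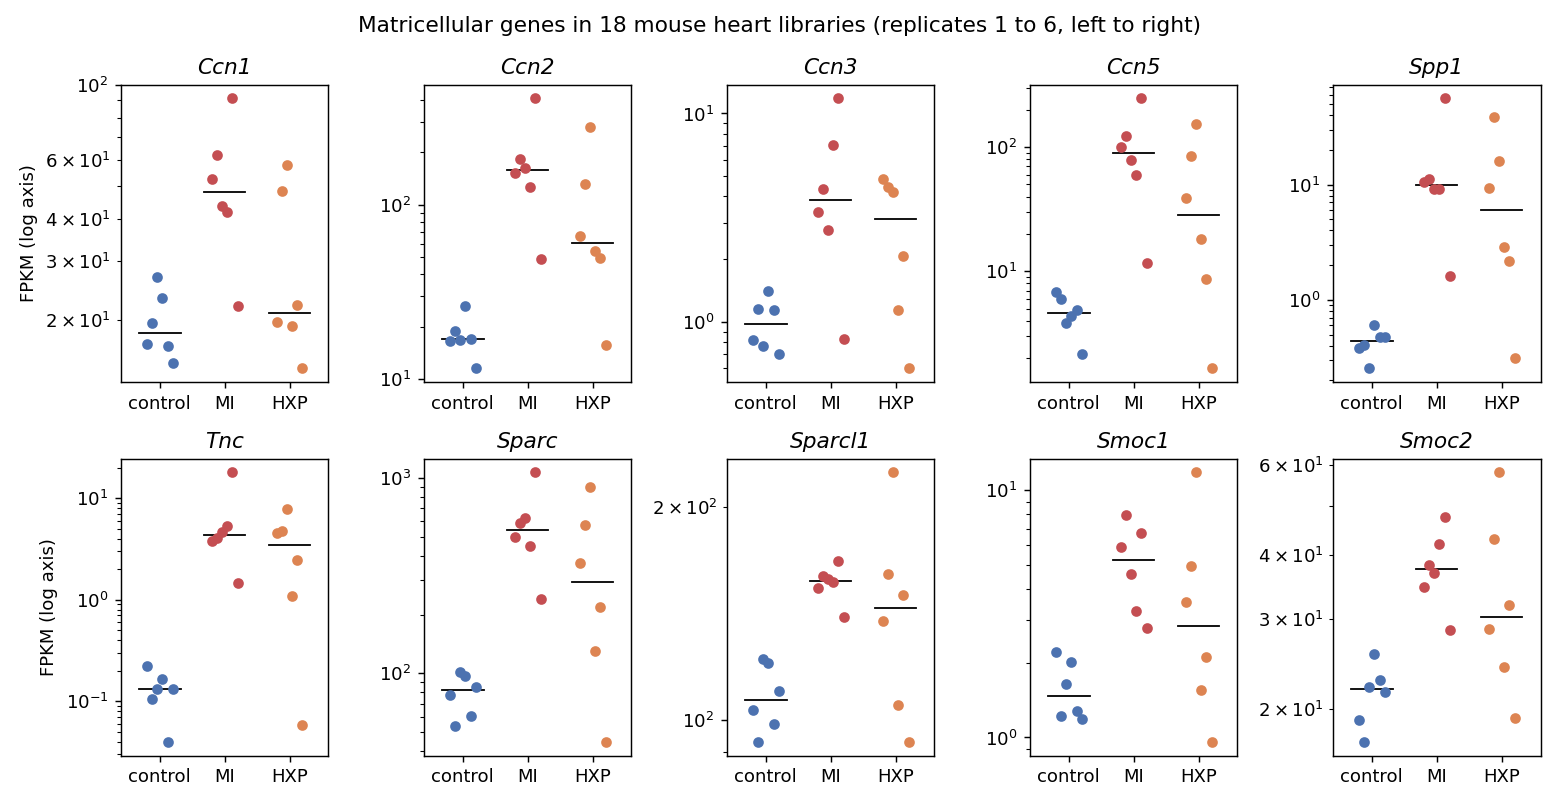
FPKM on a log axis for each of the 10 genes in control (blue), MI (red) and HXP (orange) libraries; points are libraries 1 to 6 from left to right and black lines are group medians. MI points lie above all control points for 8 of the 10 genes, while the lowest HXP point, HXP 6, lies among or below the controls for all 10.

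The first question was whether infarcted hearts differed from control hearts. All 10 genes were higher in MI by limma on log2(FPKM + 1) with Benjamini-Hochberg adjustment over 13710 genes (a call is an adjusted p below 0.05), with adjusted p from 0.0127 to 0.0188. Of all genes tested, 43.3% were called in this comparison, 40.1% higher and 3.21% lower, so a call by itself sets these genes little apart. The sizes were larger: the median log2 difference of the 10 genes was 1.86, against 0.27 over all genes tested. For 8 of the 10 genes all 6 MI libraries lay above all 6 controls, which held for 27.9% of all genes tested. The scaling moved these values: 92.6% of all calls were higher in MI with the deposited scaling, 53.0% with median-ratio scaling and 44.7% with quantile normalization, and the median of all genes moved from 0.27 to -0.00061 and -0.06, and 9 of the 10 genes were called higher under both (all but Sparcl1), with 32.4% and 30.5% of all genes called in either direction. All 10 differences were positive, as were 81.0% of all genes. In bulk tissue a rise in the number of cells of a type and a rise in RNA per cell cannot be told apart. Spp1 and Tnc, whose control means were below the 0.5 FPKM set as the minimum mean for testing, passed it through the infarcted and HXP hearts, and all 10 genes were also called with no minimum.

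Within the CCN family, Ccn2 (connective tissue growth factor, a mediator of fibrosis; chr10:24595442-24598683) had a lowest, median and highest level of 11.6, 17.0 and 26.3 FPKM in controls and of 49.1, 158 and 407 FPKM in MI. The lowest MI heart was above the highest control. On the log2 scale Ccn2 rose by 3.04 (SE 0.53, adjusted p = 0.0127). Ccn5 (a CCN protein that lacks the carboxy-terminal domain of the others; chr2:163820861-163833146) had control values of 2.15, 4.63 and 6.77 FPKM and MI values of 11.6, 89.2 and 246 FPKM. The groups did not overlap and the MI mean was 22.1 times the control mean. Its log2 rise of 3.79 (SE 0.81, adjusted p = 0.0139) ranked 25 from the top among the 13710 genes on the log2(FPKM + 1) scale, on which it was the largest of the 10; with a pseudocount of 0.1 it was 4.04, below those of Tnc and Spp1.

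Ccn1 (an angiogenic, immediate early CCN protein; chr3:145646976-145649981) changed less than Ccn2. Its lowest, median and highest levels were 14.9, 18.3 and 26.9 FPKM in controls and 22.0, 48.1 and 91.3 FPKM in MI. MI 6 lay within the control range and the other 5 MI libraries lay above it, with a log2 rise of 1.27 (SE 0.33, adjusted p = 0.0149). Ccn3 (nephroblastoma overexpressed, which opposes Ccn2 in several settings; chr15:54745702-54754039) had control values of 0.704, 0.981 and 1.40 FPKM and MI values of 0.828, 3.85 and 11.8 FPKM. Here too only MI 6 overlapped the controls, and the log2 rise was 1.35 (SE 0.39, adjusted p = 0.0176).

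In the SPARC family, Sparc (a collagen-binding protein that aids procollagen processing; chr11:55394500-55423183) had the highest level of the 10 genes in MI. Controls held 53.5, 81.8 and 101 FPKM at the lowest, median and highest, and MI hearts held 241, 544 and 1073 FPKM. The groups were well apart, with a log2 rise of 2.75 (SE 0.54, adjusted p = 0.0136) and an MI mean 7.30 times the control mean. Sparcl1 (chr5:104079111-104113733), the closest relative of Sparc, moved from 92.9, 106 and 122 FPKM in controls to 140, 157 and 168 FPKM in MI. The groups did not overlap, although the log2 rise was 0.53 (SE 0.16, adjusted p = 0.0188) and was lost under 2 scalings: 0.16 with median-ratio scaling (adjusted p = 0.214) and 0.32 with quantile normalization (adjusted p = 0.0628).

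Smoc1 and Smoc2, SPARC-related modular calcium-binding proteins with roles in growth factor signalling, rose less than Sparc and more than Sparcl1 on the log2 scale. Smoc1 (chr12:81026808-81186414) went from 1.19, 1.47 and 2.23 FPKM in controls to 2.78, 5.23 and 7.97 FPKM in MI, a log2 rise of 1.20 (SE 0.35, adjusted p = 0.0177). Smoc2 (chr17:14279506-14404790) went from 17.2, 21.8 and 25.6 FPKM to 28.5, 37.5 and 47.6 FPKM, a log2 rise of 0.80 (SE 0.20, adjusted p = 0.0146). Neither gene overlapped between the groups. MI 2 was the highest MI library for Smoc1, the one gene of the 10 for which MI 5 was not.

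Osteopontin and tenascin-C rose from low levels that were still measurable in every control library. Spp1 (a secreted phosphoprotein that binds integrins and CD44; chr5:104435118-104441050) had a lowest, median and highest level of 0.254, 0.440 and 0.604 FPKM in controls and of 1.62, 9.85 and 55.9 FPKM in MI. All 6 MI libraries lay above the controls, with a log2 rise of 2.99 (SE 0.70, adjusted p = 0.0142). Tnc (a large multimeric glycoprotein that loosens cell adhesion; chr4:63959785-64047015) had control values of 0.0395, 0.133 and 0.223 FPKM and MI values of 1.45, 4.39 and 18.1 FPKM. Again no MI library overlapped the controls, and the log2 rise was 2.38 (SE 0.46, adjusted p = 0.0136). Because a pseudocount of 1 exceeds both control levels, these log2 values understate the change: with a pseudocount of 0.1 they were 4.26 for Spp1 and 4.41 for Tnc.

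The spread within MI was ordered alike across genes. MI 5 was the highest MI library for 9 of the 10 genes and MI 6 the lowest for 10 of 10. The share of all genes ordered this way was not computed. The median-ratio factor of a library is the median over genes of its level relative to each gene's geometric mean over all libraries. Of the MI libraries it was highest in MI 5 (1.31) and lowest in MI 6 (1.01), so genes at large leaned the same way. MI 5 carried the lung epithelial markers and the highest fibroblast and macrophage sums, MI 6 the lowest of both, and the part of these markers in the gene differences was not tested. Without MI 5 all 10 genes were still called (adjusted p from 0.0412 to 0.0476), while 2602 genes in all (19.1%) were called. Without MI 4 and MI 5 together none of the 10 was called (adjusted p from 0.0554 to 0.0877), nor was any of the 13605 genes then tested by limma, with 10 of 10 below 0.05 before adjustment; 43.7% of all genes were below it in the same fit. Among the 3 control and 5 MI libraries that share the last consecutive run of the library numbers in the deposited names, 3 of 10 were called (Tnc, Sparc and Ccn2) beside 0.568% of all genes, and all 10 differences were positive. With the run as a covariate 10 of 10 were called, beside 30.8% of all genes.

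**Figure D2:**
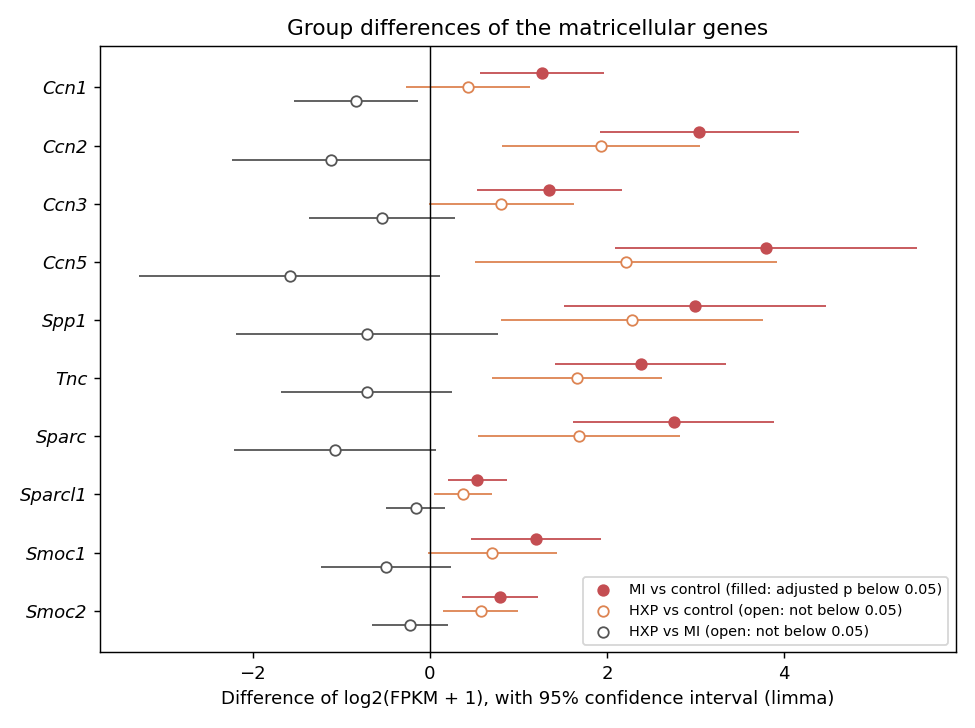
Differences of log2(FPKM + 1) with 95% confidence intervals from limma for MI against control (red), HXP against control (orange) and HXP against MI (grey); filled points have an adjusted p below 0.05. The 10 red points are filled and positive, and the 20 others are open.

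Related genes did not rise by equal amounts. For 6 pairs, differences of log2(FPKM + 1) within each library were compared between MI and control by an exact two-sided permutation test over 924 regroupings, with adjustment over the 6 pairs. The difference of Sparc minus Sparcl1 went from -0.47 ± 0.22 in controls to 1.75 ± 0.62 in MI (SD, n = 6), a change of 2.22 (exact p = 0.00216, the smallest possible, adjusted p = 0.00433). Sparc was below Sparcl1 in all 6 controls, at 0.576 to 0.829 of its level, and above it in all 6 MI hearts, at 1.72 to 6.39 times its level.

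Ccn2 minus Ccn1 changed by 1.78 and Ccn5 minus Ccn3 by 2.45, both with an adjusted exact permutation p of 0.00433. The FPKM ratio of Ccn2 to Ccn1 was 0.627 to 1.13 in controls and 2.23 to 4.46 in MI. Ccn5 minus Ccn2 changed by 0.75 and Tnc minus Spp1 by -0.61, both with an adjusted exact permutation p of 0.0338. Those latter 2 calls were each lost without any 1 of control 3, control 4, control 6, MI 1, MI 2 or MI 5, when 3 of 6 pairs were called, and the Tnc and Spp1 change was 0.15 with a pseudocount of 0.1. Smoc2 minus Smoc1 changed by -0.41 and did not pass (adjusted exact permutation p = 0.0758). With a pseudocount of 0.1 its change was -0.76 and passed (adjusted exact permutation p = 0.0208). It also passed in 2 fits without 1 library, at -0.53 and -0.50.

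The make-up of the CCN family differed accordingly. Of the summed FPKM of the 4 CCN genes, Ccn1 held 45.9 ± 5.91% in controls and 17.5 ± 4.78% in MI, Ccn2 held 41.0 ± 4.16% and 53.6 ± 3.76%, and Ccn5 held 10.8 ± 3.66% and 27.4 ± 7.31% (SD, n = 6). Ccn3 stayed the smallest, at 2.31 ± 0.457% and 1.46 ± 0.785%. Ccn1 was the largest in 4 of 6 control libraries, whereas Ccn2 was the largest in 6 of 6 MI libraries. In HXP hearts Ccn2 was the largest in 6 of 6 as well, with 48.6 to 60.1% of the sum, beside 22.8 ± 11.8% for Ccn1 and 21.2 ± 11.4% for Ccn5. HXP 6 held 44.4% Ccn1, 48.6% Ccn2 and 5.11% Ccn5.

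**Figure D3:**
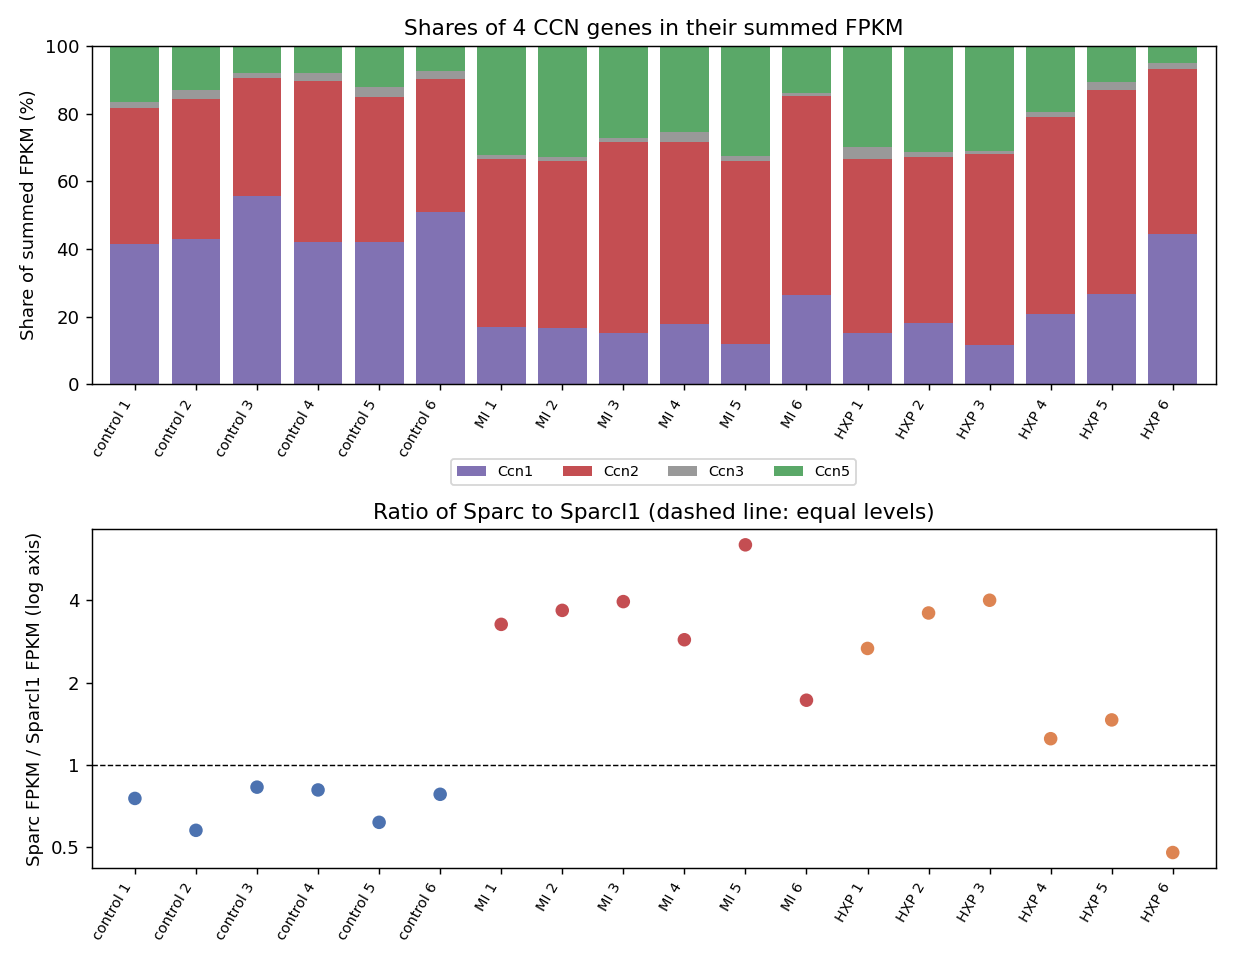
Upper panel: share (%) of each CCN gene in the summed FPKM of the 4 genes, per library, as stacked bars. Lower panel: ratio of Sparc to Sparcl1 FPKM per library on a log axis, with a dashed line at equal levels; all 6 controls and HXP 6 lie below the line, and all 6 MI and the other 5 HXP libraries lie above it.

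Fibroblast markers rose in the same hearts, so each gene was also set against them. Of the 12 fibroblast markers, 11 were called higher in MI, with a median log2 difference of 2.11; Col1a2, a collagen chain, went from 10.1 ± 1.79 to 184 ± 115 FPKM. After the mean log2 level of the 12 markers was subtracted from every gene in the same library, Ccn5 was the one member called higher, by 1.44 (SE 0.44, limma adjusted p = 0.00255), a call made for 35 genes or 0.255% of those tested. It was called in 23 of 23 alternatives. Sparcl1 (-1.82), Smoc2 (-1.56), Smoc1 (-1.15), Ccn1 (-1.09) and Ccn3 (-1.01) were called lower, as were 97.6% of all genes. The differences of Ccn2 (0.69), Spp1 (0.64), Sparc (0.40) and Tnc (0.02) did not pass, with limma adjusted p from 0.0827 to 0.948. These values depend on the reference: against only Pdgfra, Dcn and Tcf21, markers of fibroblasts in general, Ccn2 (1.58), Spp1 (1.53), Sparc (1.29) and Tnc (0.91) were also called higher, and Smoc1 (-0.26), Ccn1 (-0.20) and Ccn3 (-0.11) were no longer called. With a pseudocount of 0.1 Spp1 (1.71) and Tnc (1.86) were called higher, and Ccn3 (-0.68) was not called. The 0.255% of genes called higher belongs to the 12-marker reference with a pseudocount of 1. The calls of these other fits were not set against a share of all genes.

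Macrophage markers were also higher, 14 of 15 called with a median log2 difference of 1.56; Lgals3 (galectin-3) went from 1.24 ± 0.362 to 19.3 ± 12.7 FPKM. Mesothelial markers were called higher in 7 of 7 tested, and 3 of 10 cardiomyocyte markers were called lower. One of 10 endothelial markers (Pecam1, log2 difference 0.44) and 5 of 10 smooth muscle and pericyte markers were called higher. The calls among cartilage and bone markers were 2 of 2 tested and among neutrophil markers 1 of 4 tested. Lung epithelial markers gave 1 of 6 and skeletal muscle markers 2 of 6 higher and 1 lower. The part of any of these cell types in the levels of the 10 genes was not tested.

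Hearts of the HXP group were next set against controls. None of the 10 genes was called by limma (adjusted p from 0.0881 to 0.344), although all 10 differences were positive, as were 72.8% of all genes, and 7 of 10 had an unadjusted p below 0.05, against 33.1% of all genes. In all, 43 genes or 0.314% were called, 0.0948% higher than control. Higher calls were 30.2% of these, and 41.3%, 45.1% and 48.1% with median-ratio scaling, quantile normalization and non-mitochondrial scaling, which called 4, 3 and 2 of the 10 genes beside 9.36%, 9.46% and 5.22% of all genes. On the log2(FPKM + 1) scale the largest differences were those of Spp1 at 2.28 (95% confidence interval 0.80 to 3.76, adjusted p = 0.0893), Ccn5 at 2.21 (0.51 to 3.91, adjusted p = 0.102) and Ccn2 at 1.93 (0.81 to 3.05, adjusted p = 0.0881). With a pseudocount of 0.1 the order was Spp1 (3.28), Tnc (3.21), Ccn5 (2.35) and Ccn2 (1.98), none of them called. No gene of the 10 had all HXP libraries above all controls, which held for 1.13% of all genes.

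HXP 6 was the lowest HXP library for 10 of 10 genes, was not above the highest control for any of them, and was below the lowest control for 5 (Sparc, Smoc1, Ccn1, Ccn3 and Ccn5). The share of all genes placed this way was not computed. HXP 6 read low across the genes at large, with a median-ratio factor of 0.754 against 0.829 to 0.926 in controls. Sparc was at 44.4 FPKM in HXP 6 against 131 to 898 in the other HXP hearts, and Tnc was at 0.0586 against 1.08 to 7.76 FPKM. Without HXP 6, 9 of 10 genes were called higher than control (all but Ccn1, adjusted p = 0.155), with adjusted p from 0.0116 to 0.0482 for the 9, while 4249 genes in all (30.9%) were called. HXP 6 also had the lowest fibroblast and macrophage marker sums of the 18 libraries, and the part of these markers in its levels was not tested.

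HXP 3 was the highest HXP library for 8 of the 10 genes, the exceptions being Spp1 (highest in HXP 2, at 38.5 FPKM) and Ccn3 (highest in HXP 1, at 4.83 FPKM). For Ccn5 the lowest, median and highest HXP values were 1.66, 28.5 and 154 FPKM, a range of 93.0 times, or 17.7 times without HXP 6, against 21.2 times in MI and 3.14 times in controls. HXP 2 and HXP 3 lay above every control for 10 of 10 genes and HXP 1 for 9. HXP 5 lay above every control for 8 genes and within the control range for Ccn1 and Smoc1. HXP 4 lay above every control for 5 genes (Spp1, Tnc, Sparc, Ccn2 and Ccn5) and within the control range for the other 5. The shares of all genes above every control in each of these libraries were not computed. The median-ratio factors of HXP 1, HXP 2 and HXP 3 were 1.12, 1.21 and 1.36, above the controls (0.829 to 0.926). Those of HXP 4 and HXP 5 were 0.899 and 0.915, within the control range. The pair differences, tested for HXP after the values had been seen, gave 1 call against control: Ccn2 minus Ccn1 was higher by 1.50 (adjusted exact permutation p = 0.0260, 6 pairs).

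**Figure D4:**
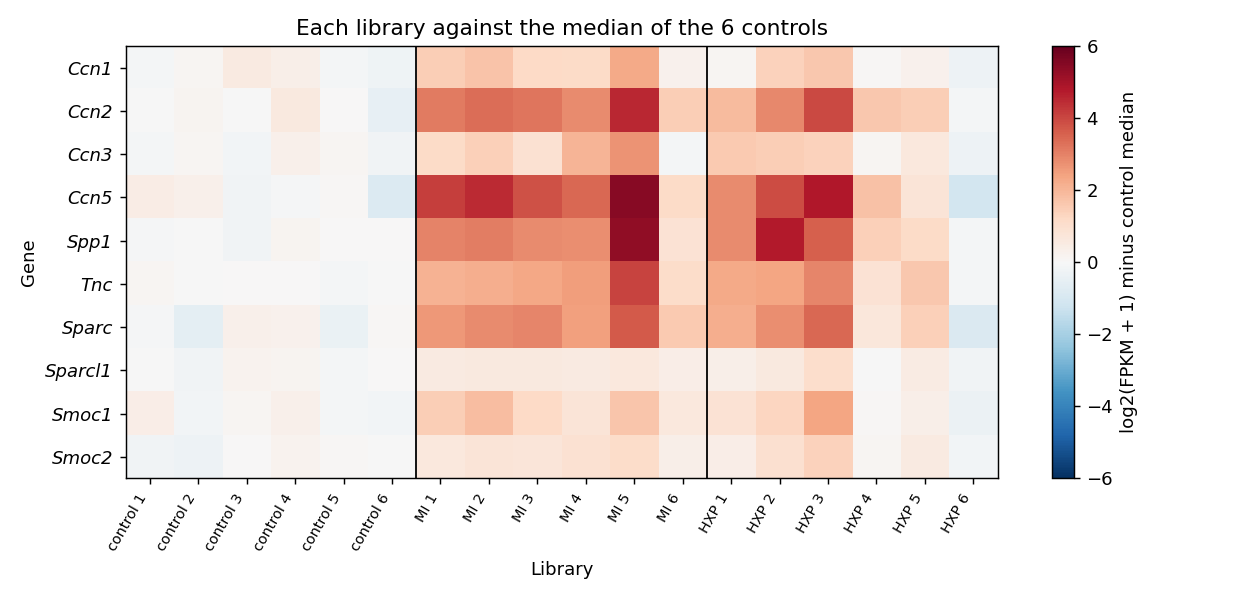
log2(FPKM + 1) of each of the 10 genes (rows) in each library (columns) minus the median of the 6 controls, from blue (lower) to red (higher). MI 5 is the reddest MI column and MI 6 the palest, and the HXP columns run from red (HXP 3) to pale blue (HXP 6).

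The last comparison set HXP against MI. That HXP hearts were infarcted before treatment is read from the series title only, and the labels do not state it for each library. No gene of the 10 and 0 of the 13710 genes were called by limma (0%), with 1891 genes, 13.8%, below an unadjusted p of 0.05; other settings called 0 to 71 genes. All 10 differences were negative, as were 75.4% of all genes, with a median of -0.71 against -0.12 over all genes. The adjusted p ran from 0.321 (Ccn1) to 0.611 (Spp1). The 3 comparisons share libraries, so their differences are not independent of one another.

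The intervals were wide. Ccn5 differed by -1.58 (95% confidence interval -3.28 to 0.12), Ccn2 by -1.11 (-2.23 to 0.01) and Sparc by -1.07 (-2.21 to 0.07). For each of Ccn1, Sparc, Sparcl1 and Smoc1, 3 of 6 HXP hearts lay below every MI heart. The share of all genes with such a count was not computed. Ccn1 differed by -0.83 (-1.53 to -0.13) and was the one gene of the 10 with an unadjusted p below 0.05. That count of 1 was 8 of 10 without HXP 3 (33.8% of all genes, lowest limma adjusted p of the 10 genes 0.0776), 6 without MI 6 (18.5% of all genes) and 4 without HXP 2 (21.1% of all genes). It was 0 without HXP 4, HXP 6 or MI 5, each left out alone (9.71%, 7.23% and 8.87% of all genes). With the run of library numbers as a covariate it was also 0, beside 4.74% of all genes. The limma adjusted p of the 10 genes then ran from 0.973 to 0.992. The middle run of library numbers held HXP 1, HXP 3, HXP 4, HXP 6 and control 1, and no MI library. Sparcl1 differed by -0.16 (-0.49 to 0.17) and Spp1 by -0.71 (-2.19 to 0.77), so for Spp1 these data allow a fall or a rise. Among the 5 MI and 2 HXP libraries of the last run of library numbers the differences of Spp1, Sparcl1 and Smoc2 were positive, at 0.44, 0.02 and 0.05.

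Genes that act with these proteins were listed by role. Of 20 other matricellular genes tested, 15 were called higher in MI, with a median log2 difference of 1.91; Postn (periostin) went from 3.14 ± 0.618 to 88.4 ± 53.1 FPKM, Thbs4 (thrombospondin 4) from 1.14 ± 0.373 to 51.8 ± 26.9 and Comp (cartilage oligomeric matrix protein) from 1.01 ± 0.458 to 237 ± 183. Of 25 receptors tested, 20 were called higher and 1 lower, with a median of 0.79. Itgb5 (integrin beta 5, which pairs with alpha v to bind osteopontin and CCN proteins) went from 26.7 ± 0.791 to 92.2 ± 37.9 FPKM and Sdc1 (syndecan 1, a heparan sulphate proteoglycan) from 1.34 ± 0.277 to 9.82 ± 6.60. The receptor gene called lower was Itgb6 (integrin beta 6), by -0.40.

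Upstream of the CCN genes, 17 of 25 regulators of their transcription were called higher, with a median of 0.46. Tgfb3 (a transforming growth factor beta ligand) went from 3.97 ± 0.289 to 36.6 ± 15.7 FPKM and Smad7 (an inhibitor of that pathway, itself induced by it) from 2.35 ± 0.381 to 6.25 ± 2.37. Of 21 other targets of YAP and TEAD tested, 13 were called higher, also with a median of 0.46, among them Igfbp3 (log2 difference 1.39) and Myof (1.56). Immediate early genes were called in 12 of 21 (median 0.61), led by Egr2, from 0.134 ± 0.0582 to 1.73 ± 0.960 FPKM. Of 18 proteases and other enzymes that act on matricellular proteins, 16 were called higher with a median of 0.85; Mmp2 (gelatinase A) went from 14.7 ± 3.23 to 122 ± 75.4 FPKM. These counts stand beside 40.1% of all genes called higher and a median of 0.27. In both HXP comparisons 0 members of every list were called by limma.

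Around their group means the 10 genes moved together over the 18 libraries taken as 1 set. After group means were removed, Pearson r of log2(FPKM + 1) over the 18 libraries ran from 0.583 (Sparcl1 and Ccn3) to 0.956 (Ccn2 and Ccn5) among the 45 pairs of genes. The r of gene pairs in general was not computed, so these values are not shown to be particular to the 10 genes. Median-ratio factors ran from 0.754 to 1.36 within HXP, and their part in r was not tested. No r was computed inside a single group. Control libraries were not ordered alike across genes. Control 2 was the lowest control for 3 genes (Sparc, Sparcl1 and Smoc2) and control 6 for 5 (Smoc1, Ccn1, Ccn2, Ccn3 and Ccn5). The genes most like Sparc were Lxn (r = 0.989, Spearman rho = 0.973), Ckap4 (r = 0.989) and Fstl1 (r = 0.987), and without the 2 libraries farthest from the median of Sparc (HXP 3 and HXP 6) r with Lxn was 0.975. The genes most like Ccn5 were Ltbp2 (r = 0.981, rho = 0.973; 0.967 without HXP 6 and MI 6), Aebp1 and Lgals3. Tnc was most like Cthrc1 and Ctsk (r = 0.967 and 0.964), Spp1 most like Clec11a (r = 0.963, rho = 0.759), and Sparcl1 most like Tuba1a and Cd34 (r = 0.968 and 0.961). All these coefficients come from the same 18 libraries, in which the fibroblast marker sum varies in the same direction, and are a description without a test.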

How the data were processed

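RNA was extracted from heart tissue with Trizol, depleted of ribosomal RNA and made into libraries with a NEBNext kit, per the labels' protocols. The authors deposited 1 table per library of Ensembl gene IDs and a value whose header names only a library number, read here as FPKM because low values multiplied by exon length fall on even steps (97.9 to 98.3% of low values within a tolerance of 0.1 step). No source used here names the aligner or counter; the build is GRCm38 and limma is named, per the submitters' processing notes. Of 34150 IDs, 34057 matched GENCODE M21 symbols and 93 did not. Between 41.5 and 45.8% of low values were multiples of 4 steps, so a step may be less than 1 fragment, and no count test was run.

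Groups were taken from the sample titles. The 13710 genes whose FPKM averaged 0.5 or more across 18 libraries were tested on log2(FPKM + 1) with limma 3.58.1 (R 4.3.3; trend, 3 groups in one fit, Benjamini-Hochberg over all genes). The method was checked on simulated data. Pair differences used exact permutation tests (scipy 1.17.1); the HXP pair tests were added after the values were seen. Text names the 10 genes, the up to 3 genes of each list with the smallest p, the 3 most alike genes per member (mean of at least 1 FPKM) and Postn; Itgb6, outside that rule, was chosen after its values were seen. The 10 genes, the lists and the tests were chosen with earlier results of these data known. Alternatives changed scaling, filter, pseudocount, prior, groups fitted, run of library numbers, replicate block and libraries left out.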

Additional observations from a re-analysis of the deposited data

Results flagged for a closer look

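Of 30 groups of 6 libraries examined (10 genes in 3 groups), 4 held a library whose gap to its nearest neighbour exceeded the 95% limit of Dixon's test (0.625 of the range for 6 values). For normally distributed values chance flags about 1 in 20 groups. The gaps were measured on FPKM, not on the log2 scale of the other tests. Whether FPKM values meet that assumption was not tested, so the 4 flags cannot be set against that rate. In MI 5, Spp1 was at 55.9 FPKM, Tnc at 18.1 FPKM and Ccn2 at 407 FPKM, each far above the other 5 MI libraries. MI 5 is the library with the lung epithelial markers and the highest fibroblast and macrophage marker sums in MI, and the part of these in its values was not tested. In HXP 3, Smoc1 was at 11.8 FPKM, far above the other 5 HXP libraries; this library had the highest fibroblast marker sum of the 18.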

How the results depend on the processing

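The number of the 10 genes called in MI against control was 10 in each of the 18 fits without 1 library. It was 3 within the last run of library numbers and 0 without MI 4 and MI 5 together, fits with fewer samples, 7 of the 7 tested with a mean of at least 5 FPKM, 9 with quantile normalization, 9 with median-ratio scaling and 10 in the other alternatives. The differences of the 10 genes were positive in every one of these fits. Genes called over the whole table went from 5934 to 2292 with a mean of at least 5 FPKM (fewer genes tested), 78 within the last run and 0 without MI 4 and MI 5, and ran from 2602 to 6905 with 1 library left out, the lowest without MI 5 and 3907 without control 2.

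In HXP against control the count of the 10 was 3 with quantile normalization, 4 with median-ratio scaling, 2 with scaling to non-mitochondrial signal, and 9 without MI 5, MI 6 and HXP 6 together (an alternative chosen after seeing the data). With 1 library left out it was 0 to 9, the 9 being without HXP 6. Genes called over the table went from 43 to 1297 (quantile), 1270 (median-ratio), 713 (non-mitochondrial), 0 (no filter), 85 (mean of at least 5 FPKM), 103 (pseudocount 0.1), 5 (only the compared groups), 0 (run as covariate), 3 (last run), 20 (without MI 4 and MI 5), 16 (MI 1 and MI 2 averaged) and 4599 (without MI 5, MI 6 and HXP 6), and ran from 0 to 4249 with 1 library left out. The cause was not tested.

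In HXP against MI the count of the 10 was 0 in every alternative run. Genes called were 4 with quantile normalization, 5 with median-ratio scaling, 1 with non-mitochondrial scaling and 3 within the last run, and ran from 0 to 71 with 1 library left out. The sign turned for Sparcl1 with median-ratio scaling (0.00132) and within the last run for Spp1 (0.44), Sparcl1 (0.018) and Smoc2 (0.052). Median-ratio scaling moved the median of all genes in MI against control from 0.27 to -0.000613. Relative to the fibroblast markers the Tnc difference, 0.02, turned to -0.012 without control 4, -0.15 without MI 5 (range -0.15 to 0.089 with 1 library left out) and -0.22 without MI 4 and MI 5 together. Tnc minus Spp1 turned to 0.15 with a pseudocount of 0.1. Pairs called were 3 with quantile normalization and 3 without MI 4 and MI 5, and 3 to 6 with 1 library left out.

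Replicate numbers did not pair the libraries: 5 of 18 same-numbered pairs had a correlation of deviations above 0.1, and 2 of 18 libraries correlated best with their own number. With the replicate number as a block, 10, 0 and 0 of the 10 genes were called in MI against control, HXP against MI and HXP against control, and 5610, 1 and 1 genes over the table. The number of libraries, 6 per group, and the unknown number of fragments behind each FPKM limit the precision.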
